A study of Arabidopsis thaliana with 42 samples.

Results

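CSA1, AT5G45500 and AT5G45510 are 3 genes of chromosome 5 whose root signals were described in 7 ecotypes of Arabidopsis thaliana, each with and without nitrate. They were chosen by their probe sets on the ATH1 array, which the platform annotation assigns to 1 gene each (250063_at, 248944_at and 248945_at), so that they are 3 of the 6590 genes tested. They were also chosen on values of these arrays: CSA1 on its responses in Kas2 and Ts5, AT5G45500 on its differences among ecotypes and its averaged response, and AT5G45510 on the spread of its response over ecotypes. Those values are therefore given as a description, with no test of their own.

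Plants of Col0, Kas2, NFA8, SQ8, TAMM27, Ts5 and Var2-1 had grown in hydroponic culture for 12 days with ammonium succinate as the only nitrogen. They were then given 5 mM KNO3, or 5 mM KCl as the control, for 2 h, and RNA of whole roots was hybridised. There were 3 arrays, labelled as biological replicates, for each of the 14 combinations of ecotype and treatment, 42 in all. The ecotypes are natural lines, and whole roots mix all root cell types, so that fewer cells of a type and less RNA per cell cannot be told apart. The 11 elements of each probe set match the Col-0 sequence, and in another ecotype a sequence difference under an element and a lower transcript level cannot be told apart from the signal alone.

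CSA1 encodes a receptor of the TIR-type NLR family, intracellular proteins that carry a TIR domain, a nucleotide-binding domain and leucine-rich repeats and that start a defence response when a pathogen molecule or damage to a guarded host protein is sensed. Such receptors signal through the EDS1 family of lipase-like proteins and through helper NLRs, and their genes are known for strong differences in sequence and expression among natural ecotypes. The next protein-coding gene to CSA1 is DAR4, also called CHS3, which encodes another NLR that works with CSA1 as a pair; the platform annotation gives it no probe set of its own, and it is not analysed here. AT5G45500 and AT5G45510 are direct neighbours, with no protein-coding gene between them in RefSeq, but the tables used here give neither a name nor a function. For CSA1 these tables give the name, and its function as a receptor is background knowledge. The description of all 3 as immune receptor genes therefore rests on the name of CSA1 only, and the other 2 are called by their loci.

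The median signal of an array was 97.5 to 158, and each array had 49.5 to 62.5% of its probe sets at 100 or more, which the study took as detected. The nitrite reductase gene NIR1 and the nitrate transporter gene NRT2.1, both induced by nitrate, checked the labels. NIR1 signals of the KCl and KNO3 arrays were apart only in NFA8 and SQ8 and overlapped in the other 5 ecotypes. On the array labelled Col0 KCl replicate 2 NIR1 was at 9603 and NRT2.1 at 6932, against 2659 and 436 on the array labelled Col0 KNO3 replicate 1. In all, 11 arrays lay on the other side of their ecotype's NIR1 midpoint (midway between its lowest and highest log2 signal) from their label, which were Col0 KCl 2, Col0 KNO3 1, Kas2 KCl 1, Kas2 KNO3 1 and 2, NFA8 KNO3 2, TAMM27 KNO3 2, Ts5 KCl 1, Var2-1 KCl 1 and 3 and Var2-1 KNO3 2. NRT2.1 was not used for this and did not go against the label on all of them. It lay outside the range of the other treatment, on the side of the label, on Kas2 KNO3 1 and 2, NFA8 KNO3 2, TAMM27 KNO3 2 and Var2-1 KCl 1. On TAMM27 KNO3 2 it was at 168, against 46.8 to 118 in KCl. On the rest of the 11 arrays it lay within the range of the other treatment. The labels were kept, and the tests, with the responses that moved most, are also given without the 11 arrays. Of 9 root markers 2 were measured, and their summed signal was between 2181 and 15066, with PYK10, a myrosinase abundant in roots, at 2058 or more on every array. Of 7 shoot photosynthesis markers 2 were measured, and their sum was 95.3 to 1853 in Col0, Kas2, NFA8 and SQ8, 1906 to 4563 in TAMM27, 281 to 5626 in Ts5 and 191 to 23138 in Var2-1.

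CSA1 was well detected in 4 ecotypes and below the detection cutoff on nearly all arrays of the other 3. In Col0 it was at 235, 267 and 175 in KCl and at 161, 423 and 216 in KNO3. In NFA8, the ecotype with the highest signals, it was at 486, 781 and 352 in KCl and at 784, 498 and 1131 in KNO3. The arrays of these ecotypes overlapped with each other. SQ8 gave 404, 468 and 515 in KCl and 377, 527 and 555 in KNO3, and TAMM27 gave 317, 468 and 354 in KCl and 356, 359 and 267 in KNO3. Values were close in both, and neither treatment stood above the other.

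In Kas2, Ts5 and Var2-1 CSA1 reached a signal of 100 on 1 of the 18 arrays. Kas2 had 88.1, 30.6 and 370.9 in KCl and 47.5, 14.3 and 5.7 in KNO3, so that its 2 treatments overlapped and KCl replicate 3 stood far above the rest. Ts5 had 21.2, 7.7 and 1.5 in KCl and 65.0, 70.2 and 49.1 in KNO3, and here every KNO3 array lay above every KCl array although all 6 were under 100. In Ts5 5.25% of all genes tested had their treatments apart in this way. Var2-1 had 14.8, 13.4 and 45.5 in KCl and 23.5, 24.6 and 20.9 in KNO3, without a separation of treatments. In the plot of signals by array these 3 ecotypes form the low set of the CSA1 panel.

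**Figure D1:**
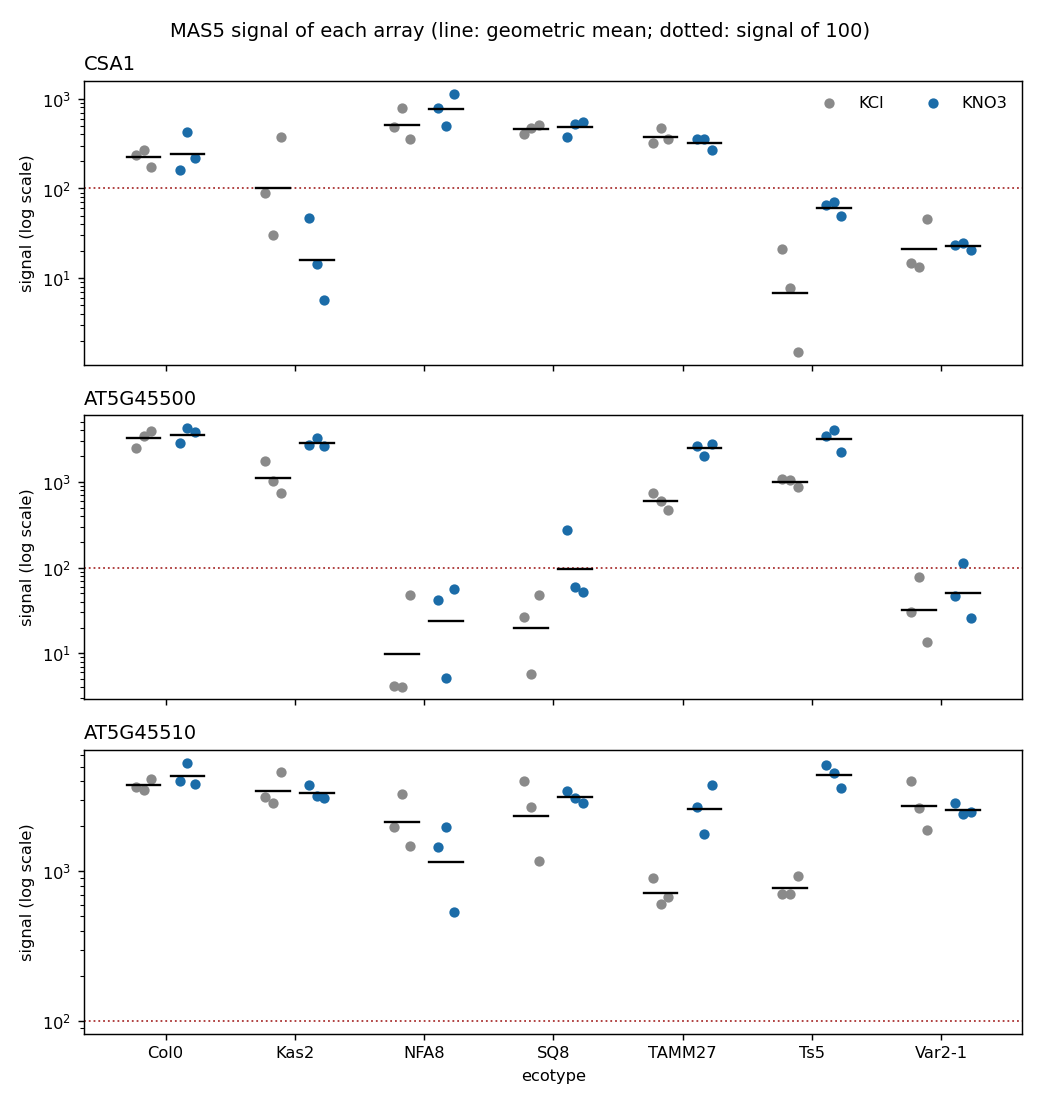
MAS5 signal (log axis) of CSA1, AT5G45500 and AT5G45510 on each of the 42 arrays by ecotype, with KCl in grey and KNO3 in blue, the geometric mean of each group of 3 arrays as a line and a signal of 100 as a dotted line. CSA1 lies below 100 on 17 arrays of Kas2, Ts5 and Var2-1, AT5G45500 on 16 arrays of NFA8, SQ8 and Var2-1, and AT5G45510 on none.

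On the log2 scale the mean CSA1 level over both treatments (log2 of the signal plus 1, SE 0.33 in each ecotype, 6 arrays) was 9.29 in NFA8, 8.88 in SQ8, 8.45 in TAMM27 and 7.87 in Col0, and then 5.38 in Kas2, 4.52 in Var2-1 and 4.46 in Ts5. Each ecotype overlapped with the next in this order over its 6 arrays, Col0 with Kas2 only through Kas2 KCl replicate 3. The differences among ecotypes passed the test (adjusted p = 3.34e-11, limma F-test with Benjamini-Hochberg adjustment over 6590 genes at 0.1). Of all genes tested 59.8% passed it too. CSA1 was chosen on its responses in Kas2 and Ts5, where its signals were mostly low. It entered the test by its mean signal over all arrays, which its signals in NFA8, SQ8, TAMM27 and Col0 kept above the detection cutoff. Both steps can favour a gene whose levels differ among ecotypes, so that the test is not independent of them. The distance between the highest and the lowest ecotype was 4.83 on the log2 scale. Without the 11 arrays whose NIR1 went against the label the adjusted p was 2.64e-08.

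The ratio of 3' to 5' signal of control transcripts, a measure of RNA integrity and labelled fragment length, also differed among ecotypes. Its median log2 value over 6 arrays was 3.84 in Kas2, 3.29 in Ts5 and 2.16 in Var2-1, the ecotypes of low CSA1, and 3.03 in TAMM27, 1.75 in Col0, 1.62 in NFA8 and 1.25 in SQ8. With the ratio as a covariate the adjusted p for CSA1 was 1.96e-10. The part of the ratio in the CSA1 differences was not tested further.

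The nitrogen response of CSA1 was taken as the log2 ratio of KNO3 over KCl. In the 4 ecotypes of high signal it was 0.14 (Col0), 0.57 (NFA8), 0.06 (SQ8) and -0.21 (TAMM27), and in Var2-1 it was 0.13. These lay within 1 SE of 0 (SE 0.67 in each ecotype, 3 arrays against 3), but the fit shares 1 spread over all groups. Log2 SDs were 1.79 in Kas2 KCl and 1.58 in Ts5 KCl. They were 0.58 and 0.59 in NFA8 and 0.18 and 0.30 in SQ8 (KCl and KNO3). Low groups could also vary little, with 0.27 in Ts5 KNO3 and 0.12 in Var2-1 KNO3. The shared SE is thus not the spread of the ecotypes of high signal, and a response there could be missed. The values on which the gene was chosen were -2.57 in Kas2 and 2.98 in Ts5, both among signals mostly under 100. Without the arrays of discordant NIR1 the response was 0.57 in Col0, 0.88 in NFA8 and 0.69 in Var2-1. The KNO3 arrays kept in NFA8 (2 against 3 in KCl) and in Var2-1 (2 against 1, all under 100) lay above the KCl arrays kept. How many of all genes did so in these few arrays was not counted, and no conclusion is drawn from it. Without Kas2 KCl replicate 3 the Kas2 response was -1.64, and without the arrays of discordant NIR1, which leaves 2 KCl arrays and 1 KNO3 array, it was -4.02. With a pseudocount of 16 in place of 1 the Ts5 response was 1.63, and without Ts5 KCl replicate 1, the array of discordant NIR1, it was 3.73. Averaged over the 7 ecotypes the response was 0.16 (SE 0.25), higher in KNO3 in 5 of 7 ecotypes, and did not pass (adjusted p = 0.944, limma, against 0.789% of all genes that did). The average includes the Kas2 and Ts5 responses that chose the gene, which have opposite signs. Its test is therefore not independent of the choice, and no conclusion is drawn from it.

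AT5G45500 fell into an even wider split, well detected in 4 ecotypes and near background in 3. Col0 gave 2496, 3415 and 3959 in KCl and 2823, 4217 and 3800 in KNO3. In Kas2 the values were 1764, 1021 and 732 in KCl and 2724, 3283 and 2626 in KNO3, and every KNO3 array lay above every KCl array. TAMM27 showed the same order, with 739, 606 and 464 in KCl and 2640, 2026 and 2797 in KNO3. So did Ts5, with 1070, 1054 and 869 in KCl and 3396, 3984 and 2248 in KNO3, and in these 3 ecotypes 7 of the 9 KNO3 arrays and 0 of the 9 KCl arrays reached the range of Col0.

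NFA8, SQ8 and Var2-1 were low for AT5G45500 under both treatments. NFA8 had 4.2, 4.1 and 47.3 in KCl and 41.9, 5.2 and 56.8 in KNO3, and SQ8 had 26.6, 5.8 and 48.1 in KCl and 278.1, 59.5 and 51.7 in KNO3. Var2-1 had 30.1, 76.7 and 13.7 in KCl and 46.1, 112.9 and 25.5 in KNO3. Only 2 of these 18 arrays, SQ8 KNO3 replicate 1 and Var2-1 KNO3 replicate 2, reached 100. The lowest array of the other 4 ecotypes, TAMM27 KCl replicate 3 at 464, lay above all of them.

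The mean log2 level of AT5G45500 over both treatments (SE 0.38) was 11.73 in Col0, 10.79 in Kas2, 10.78 in Ts5 and 10.24 in TAMM27, and 5.49 in SQ8, 5.37 in Var2-1 and 4.04 in NFA8. The gap of 4.75 between TAMM27 and SQ8 was the only step in this order at which the arrays of neighbouring ecotypes did not overlap. These levels chose the gene and carry no test.

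Its response, with all arrays, was positive in the 7 ecotypes, at 0.14 in Col0, 1.38 in Kas2, 1.20 in NFA8, 2.20 in SQ8, 2.05 in TAMM27, 1.65 in Ts5 and 0.67 in Var2-1 (SE 0.76 each), with a mean of 1.33 (SE 0.29). KNO3 arrays lay wholly above KCl arrays in Kas2, SQ8, TAMM27 and Ts5, where 8.98%, 4.49%, 4.98% and 5.25% of all genes tested did so. As linear folds, from geometric means of the signal plus 1, the response was 2.61 in Kas2, 3.14 in Ts5, 4.15 in TAMM27 and 1.10 in Col0. Whether the response differed among ecotypes was tested, since that contrast did not choose the gene. The difference did not pass (adjusted p = 0.9998, unadjusted p = 0.483, limma F-test of the interaction, which 0.197% of all genes passed). The test shares 1 spread over all groups. Log2 SDs were 1.86 in NFA8 KCl and 1.47 in SQ8 KCl, near background, but 0.34 in TAMM27 KCl and 0.17 in Ts5 KCl. It could therefore miss a difference among the detected ecotypes and does not show equal responses. Single arrays moved the low or small responses, which were -0.05 in Col0 without KCl replicate 1, 1.39 in SQ8 without KCl replicate 2, and in NFA8 2.27 without KCl replicate 3 and 2.20 without KNO3 replicate 2, the array of discordant NIR1. Without its arrays of discordant NIR1 the response of Var2-1 was -1.14, from KCl replicate 2 against KNO3 replicates 1 and 3 alone. In Var2-1 each KNO3 array lay above the KCl array of the same number, with 5 of the 6 arrays under 100. This order was seen afterwards and not counted over all genes. Replicate numbers did not pair the arrays over the whole design, and no conclusion is drawn from it.

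AT5G45510 was detected on every array, between 532 and 5345. Its KCl arrays in TAMM27 and Ts5 were lower than every KCl array of the other ecotypes. In TAMM27 it was at 902, 604 and 674 in KCl and at 2692, 1792 and 3770 in KNO3. In Ts5 it was at 704, 712 and 933 in KCl and at 5132, 4575 and 3605 in KNO3. The treatments did not overlap in either ecotype. All KNO3 arrays lay above all KCl arrays in 4.98% of all genes tested in TAMM27 and in 5.25% in Ts5. The Ts5 KNO3 arrays of AT5G45510 lay within the range of Col0. Col0 itself had 3649, 3522 and 4137 in KCl and 4037, 5345 and 3820 in KNO3.

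Elsewhere the treatments overlapped for AT5G45510. Kas2 had 3168, 2875 and 4604 in KCl and 3812, 3186 and 3117 in KNO3, and Var2-1 had 4034, 2657 and 1892 in KCl and 2868, 2424 and 2514 in KNO3. NFA8 had 1992, 3294 and 1481 in KCl and 1453, 1969 and 532 in KNO3, with the lowest signal of the gene on KNO3 replicate 3. SQ8 had 4056, 2713 and 1176 in KCl and 3479, 3094 and 2885 in KNO3. The ecotypes in which its neighbour AT5G45500 was nearly undetected thus kept AT5G45510 at 532 or more.

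The response of AT5G45510 was 1.88 in TAMM27 and 2.50 in Ts5, folds of 3.67 and 5.65, and 0.21 in Col0, -0.05 in Kas2, -0.89 in NFA8, 0.42 in SQ8 and -0.07 in Var2-1 (SE 0.39 each). The response in NFA8 was -0.33 without KNO3 replicate 3, and that in SQ8 was -0.08 without KCl replicate 3. The summed shoot photosynthesis markers were at 3704 to 4563 in KCl and 1906 to 3684 in KNO3 in TAMM27 and at 281 to 1094 and 735 to 5626 in Ts5, and their part in the responses was not tested. The plot of responses by ecotype shows TAMM27 and Ts5 far to the right of the other 5 for this gene.

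**Figure D2:**
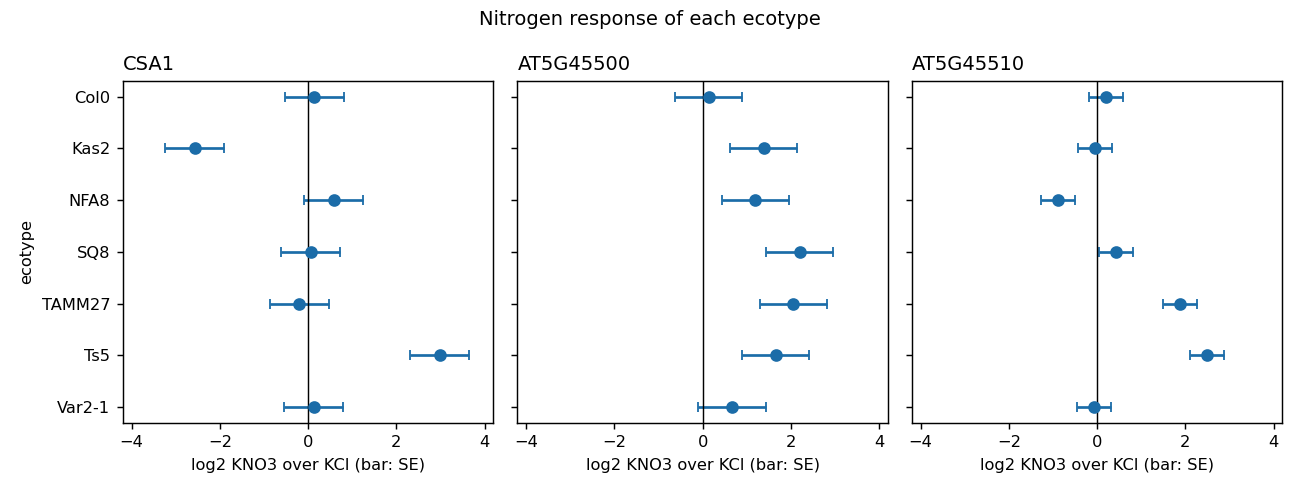
Response of each gene in each ecotype as the log2 ratio of KNO3 over KCl, with the SE of the fit as bars (3 arrays against 3). AT5G45500 lies at or above 0.14 in every ecotype, AT5G45510 stands apart at 1.88 in TAMM27 and 2.50 in Ts5, and CSA1 has -2.57 in Kas2 and 2.98 in Ts5.

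Averaged over ecotypes AT5G45510 rose by 0.57 in KNO3 (SE 0.15, adjusted p = 0.0636, limma, which 0.789% of all genes passed), with 4 of 7 ecotypes higher. The average rests on TAMM27 (1.88) and Ts5 (2.50), and the responses of the other ecotypes lay between -0.89 (NFA8) and 0.42 (SQ8). The gene was chosen on the spread of these same responses. No conclusion about a response common to the ecotypes is therefore drawn from the average. The call was lost without the arrays of discordant NIR1 (0.53, adjusted p = 0.439) and in 12 of the 42 fits that left out a single array (adjusted p from 0.101 to 0.122). The arrays were Col0 KCl 1, Col0 KNO3 2, Kas2 KCl 2, Kas2 KNO3 1, NFA8 KCl 1 and 3, NFA8 KNO3 1 and 2, TAMM27 KCl 2, TAMM27 KNO3 3, Ts5 KNO3 1 and Var2-1 KCl 3. Its levels differed among ecotypes (adjusted p = 9.36e-05, limma F-test, and 0.00701 without the arrays of discordant NIR1). Of all genes tested 59.8% passed this test too, and 27.1% without those arrays. The mean log2 level over both treatments (SE 0.19) was 11.98 in Col0, 11.74 in Kas2, 11.41 in SQ8, 11.38 in Var2-1, 10.85 in Ts5, 10.61 in NFA8 and 10.42 in TAMM27. All neighbours in this order overlapped over their 6 arrays, and the distance from highest to lowest was 1.56, against 4.83 for CSA1 and 7.69 for AT5G45500.

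The 11 arrays of discordant NIR1 were then looked up for the 2 neighbouring genes. On 4 of them AT5G45500, and on 6 of them AT5G45510, was within the range of the other treatment of the ecotype. For CSA1 this held on 5. The counts were not set against those of all genes and are a description. Arrays of 1 label also left that range on opposite sides. Var2-1 KCl replicates 1 and 3 had AT5G45510 at 4034 and 1892, above and below all KNO3 arrays (2424 to 2868). The array labelled NFA8 KNO3 replicate 2, for example, had AT5G45500 at 5.2, between the KCl arrays (4.1 to 47.3), and AT5G45510 at 1969, also between them (1481 to 3294), so that these genes did not tell its treatment apart. The arrays of TAMM27, Ts5 and Kas2 were chosen for the plot against NIR1 after their values were seen, since there the treatments were apart for at least 1 of the 2 genes. The array labelled TAMM27 KNO3 replicate 2 had NIR1 at 407, within the range of the KCl arrays (314 to 425), but AT5G45510 at 1792 and AT5G45500 at 2026, above every TAMM27 KCl array. The array labelled Ts5 KCl replicate 1 had NIR1 at 2176, between the KNO3 arrays (1396 to 4541), but AT5G45510 at 704 and AT5G45500 at 1070, below every Ts5 KNO3 array. In Kas2 the array labelled KCl replicate 1 had NIR1 at 2660, above KNO3 replicates 1 and 2 at 951 and 1193, while AT5G45500 was at 1764 on the KCl array and at 2724 and 3283 on the KNO3 arrays. All arrays of a label had also been freed of the same elements before MAS5, so that label and element list cannot be told apart here.

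**Figure D3:**
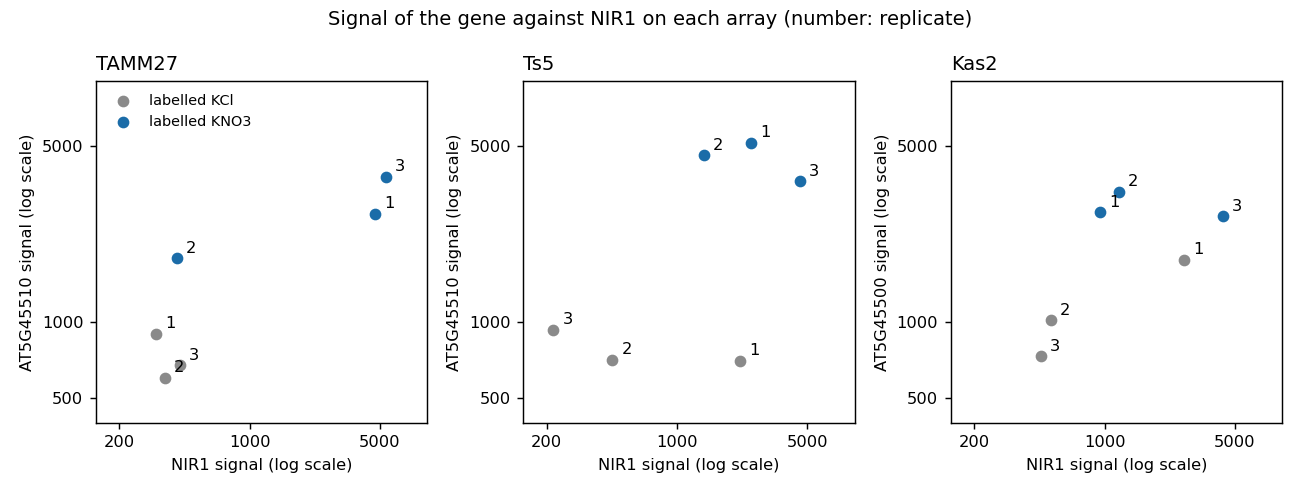
Signal of AT5G45510 in TAMM27 and Ts5 and of AT5G45500 in Kas2 against NIR1 on each array (both axes log, 3 KCl arrays in grey and 3 KNO3 arrays in blue, numbered by replicate). TAMM27 KNO3 replicate 2, with NIR1 at 407, and Ts5 KCl replicate 1, with NIR1 at 2176, lie with the arrays of their label on the vertical axis.

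The study had ranked the 11 elements of each probe set against their order in Col-0 and discarded outliers separately for KCl and KNO3 in each ecotype other than Col0, in 12 lists. These lists were read for the 3 genes because an element that stays in the signal under 1 treatment and not under the other can enter the response. Over 12 lists, 55.3% of the elements of AT5G45500 were discarded (73 of 132), 37.9% of those of AT5G45510 (50) and 19.7% of those of CSA1 (26), against 14.6% over all genes tested. At least as many elements in all were discarded in 0.0303% of the genes tested for AT5G45500, in 0.501% for AT5G45510 and in 20.1% for CSA1.

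For AT5G45500 between 2 and 8 elements were missing from a list. NFA8 lost 8 in KCl and 7 in KNO3 (6 in common), SQ8 lost 6 and 7 (5 in common), and Var2-1 lost 7 and 8 (5 in common). In these 3 ecotypes of near-background signal elements 1, 2, 4 and 10 were discarded in all 6 lists, while in the 6 lists of Kas2, TAMM27 and Ts5 element 4 was discarded in 0, element 1 in 1, element 2 in 3 and element 10 in 5. Only 1 element of AT5G45500 was kept in both lists of Var2-1, 2 in NFA8 and 3 in SQ8. TAMM27 lost 6 and 7 (5 in common) and Ts5 lost 5 and 6 (4 in common), although the gene was well detected in both. Kas2 lost elements 1, 7, 8 and 10 in KCl and elements 2 and 11 in KNO3, so that its 2 lists had 0 in common.

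Levels were then set beside the numbers of elements discarded. Relative to Col0 the log2 level of AT5G45500 was -7.69 in NFA8, -6.24 in SQ8 and -6.36 in Var2-1, where 15, 13 and 15 elements were discarded in the 2 lists together. Genes with at least as many numbered 3, 2 and 1 in these ecotypes, AT5G45500 among them, so that no comparison at matched numbers was possible. TAMM27 also lost 13 elements and was at -1.49, against a median of -0.47 over the 11 genes with at least as many. How far sequence under the elements and transcript abundance each entered the low signals was not tested.

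**Figure D4:**
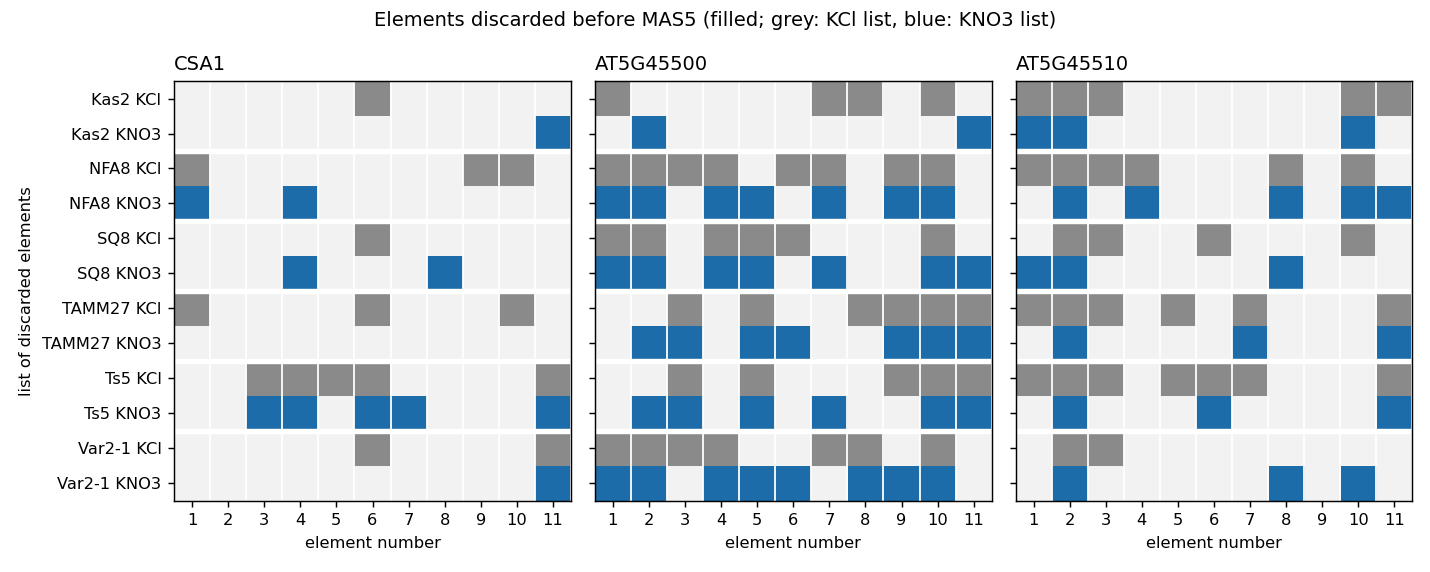
Elements 1 to 11 of each probe set (horizontal axis) discarded before MAS5 in the 12 lists (vertical axis), with KCl lists filled in grey and KNO3 lists in blue. AT5G45500 lost elements 1, 2, 4 and 10 in all lists of NFA8, SQ8 and Var2-1, and AT5G45510 lost 6 elements in TAMM27 KCl and 7 in Ts5 KCl against 3 in each KNO3 list.

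For AT5G45510 element 2 was discarded in all 12 lists and element 9 in 0. The ecotypes with the highest responses were also those whose lists differed most in number. TAMM27 lost elements 1, 2, 3, 5, 7 and 11 in KCl and elements 2, 7 and 11 in KNO3, and Ts5 lost elements 1, 2, 3, 5, 6, 7 and 11 in KCl and elements 2, 6 and 11 in KNO3. In both, the KNO3 list was contained in the KCl list, which removed 3 further elements in TAMM27 and 4 in Ts5. Kas2, with a response of -0.05, lost 5 elements in KCl and 3 in KNO3 (3 in common), NFA8 lost 6 and 5, SQ8 lost 4 and 3, and Var2-1 lost 2 and 3.

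Over all genes tested the median response was near 0 whatever the difference in the number of discarded elements. Over the 6 ecotypes, 3149 responses of genes that lost 3 or more elements fewer in KNO3 had a median of -0.02 (quartiles -0.38 and 0.38), and 10533 responses of genes with equal numbers had a median of -0.01 (quartiles -0.29 and 0.27). The quartiles were wider apart where the lists differed, and a median near 0 does not show how far single responses moved either way. In TAMM27, 2.42% of the 289 genes with the same difference as AT5G45510 had a response at least as far from 0, against 0.744% of all genes. In Ts5 it was 1.54% of 195 genes, against 0.440% of all genes. For AT5G45510 the part of the elements in the response was not tested and cannot be told apart from that of nitrate in summarised signals.

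CSA1 lost 0 to 3 elements per list outside Ts5 and 5 in each list of Ts5. Kas2 lost element 6 in KCl and element 11 in KNO3, and Var2-1 lost elements 6 and 11 in KCl and 11 in KNO3, so that 9 elements were kept in both lists of each of these low ecotypes. In Ts5, elements 3, 4, 5, 6 and 11 were discarded in KCl and elements 3, 4, 6, 7 and 11 in KNO3, 4 in common, and 5 elements were kept in both. Relative to Col0 the log2 level of CSA1 was -2.49 in Kas2, -3.35 in Var2-1 and -3.41 in Ts5. Of the genes that lost at least as many elements there, 1.28% of 5248, 0.826% of 2541 and, in Ts5 with 10 elements lost in the 2 lists, 2.76% of 145 were as low. The median over those 145 genes in Ts5 was itself -0.51, and of all genes there 0.364% were as low.

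Numbers discarded were equal in both lists of Ts5 (5) and of Kas2 (1) for CSA1. The elements themselves were not all the same in both lists, and their part in the 2 responses was not tested.

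The patterns of the 3 genes were also set against each other. Over the 14 group means of log2 signal, Pearson's r was 0.28 between the neighbours AT5G45500 and AT5G45510, -0.26 between CSA1 and AT5G45500 and -0.01 between CSA1 and AT5G45510. Over the responses of the 7 ecotypes r was 0.53 between CSA1 and AT5G45510, 0.47 between the neighbours and 0.06 between CSA1 and AT5G45500. Values of different genes come from the same arrays, and these correlations are a description. Genes most like CSA1 were AT2G22590 (r = 0.89), the alpha-tubulin gene TUA6 (0.88) and AT1G02270 (0.85). TUA6 had geometric mean signals of 3049 in Col0 and 1761 in NFA8 but 253 in Kas2, 217 in Ts5 and 386 in Var2-1, the same ecotypes in which CSA1 was low. Most like AT5G45500 were AFR, the gene of an F-box protein of far-red light signalling (0.86), AT4G19730 (0.84) and AT3G50300 (0.84). AT4G19730 was at 44.9 in NFA8, 62.4 in SQ8 and 91.0 in Var2-1 and at 362 to 2151 in the other 4 ecotypes. Likeness to AT5G45510 was weaker, with AT3G11290 (0.77), AT2G43610 (0.76) and sks15, a relative of the SKU5 gene of root growth (0.76).

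Signals of the measured genes around the loci differed among ecotypes too. AT5G45480, which lies on the other side of AT5G45500 with 1 gene between, had a geometric mean of 1889 in Col0 and of 199 in NFA8, 380 in SQ8 and 300 in Var2-1, where AT5G45500 was near background, and of 367 in TAMM27, where it was not. Its averaged response was 0.32 (SE 0.13, adjusted p = 0.458, limma). AT5G45530 and AT5G45540, behind AT5G45510, stayed at a mean of 25.1 and 45.3 and were not tested, MOB1-like had an averaged response of 0.08 (SE 0.17), and AT5G45560 had -0.36 (SE 0.21). Near CSA1, AT5G17850 had a geometric mean of 109 to 328 over ecotypes and its highest in Kas2, where CSA1 was low, and AT5G17910 had 45.6 in Ts5 and 164 in Var2-1. These averaged responses were -0.40 (SE 0.21) for AT5G17850 and -0.15 (SE 0.31) for AT5G17910.

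Of 85 further genes in the lists of NLR receptors, partners, locus neighbours and defence, 19 had a probe set of their own and 9 reached a mean signal of 100; the other 66 are not analysed here. The 8 receptor genes measured besides CSA1 all had a mean signal under 100. AT5G11250 and AT5G45060 of the TIR-type list had 83.1 and 66.2, and LOV1, a CC-type receptor that gives victorin sensitivity, had 54.0. AT5G66890 of the helper NLR list had 55.7. None of these was tested, and no gene of the list of salicylic acid and defence output was measured under this rule. The text rule for disease resistance proteins found 7 genes in the tables, 0 of them with a probe set, so that CSA1 was not among them.

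All 9 tested genes of the lists differed among ecotypes, where 59.8% of all genes did. Of the EDS1 family, AT3G48080 had a geometric mean of 385 in Col0 and 62.7 in Kas2 (adjusted p = 1.23e-07, limma F-test), and SAG101, a partner of EDS1 in TIR-type receptor signalling, had 292 in Kas2 and 69.7 in TAMM27 (adjusted p = 2.65e-05). SGT1A, a co-chaperone of NLR proteins, had 235 in Ts5 and 69.6 in NFA8 (adjusted p = 0.00398). AT1G27190 of the BAK1 and BIR list varied least among these, from 338 in Kas2 to 593 in TAMM27 (adjusted p = 0.0425). Without the 11 arrays of discordant NIR1, 5 of the 9 passed, where 27.1% of all genes did.

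None of the 9 passed for the averaged response (0.789% of all genes did) or for the interaction (0.197%), by limma with or without moderated variances. At an unadjusted p under 0.05 there were 1 for the averaged response, AT5G45480, and 0 for the interaction, where 560 and 408 of all 6590 genes were so. Their median averaged response was 0.08, against -0.01 over all genes tested. The plot of levels by ecotype sets these genes beside CSA1 and AT5G45500, whose ecotypes were further apart than those of each tested gene of the lists. This is a description, since AT5G45500 was chosen on its differences among ecotypes. The lowest ecotypes of both genes also lie below the detection cutoff.

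**Figure D5:**
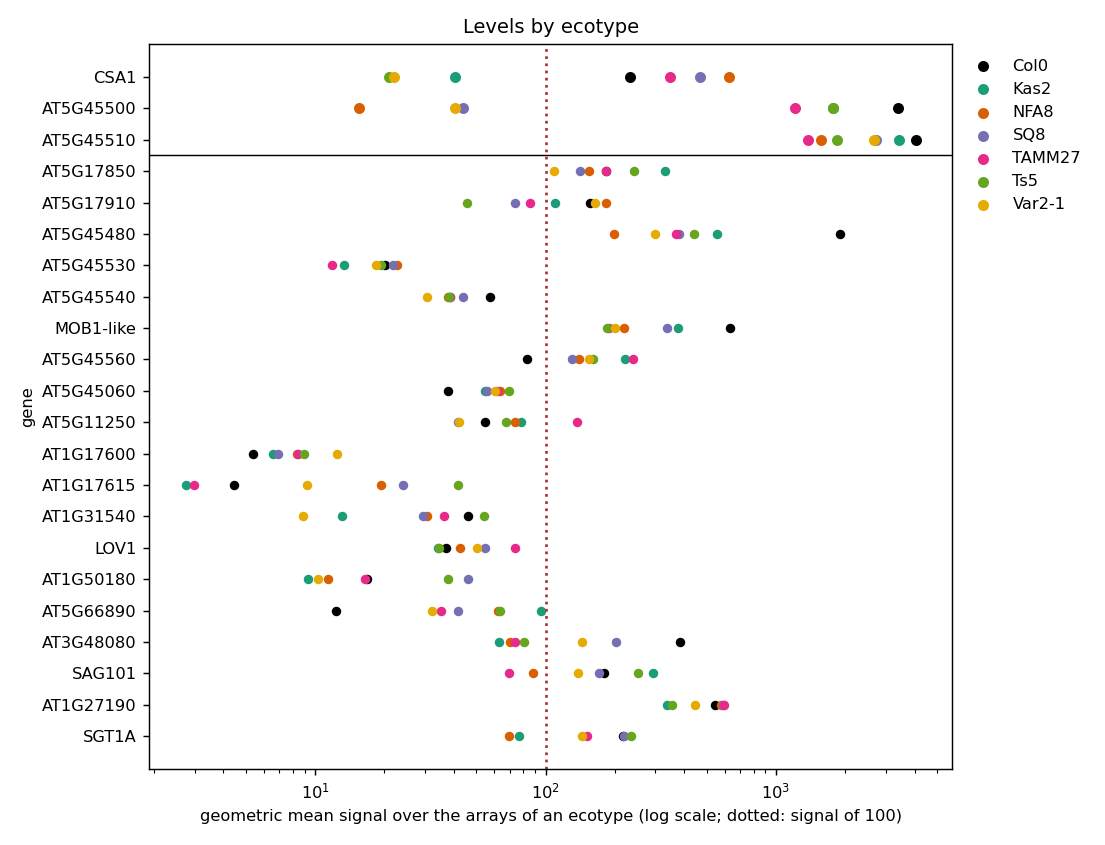
Geometric mean signal (log axis) over the 6 arrays of each ecotype, in colour, for the 3 genes (above the line) and the 19 measured genes of the lists, with a signal of 100 as a dotted line. CSA1 and AT5G45500 each fall into a set of ecotypes below 100 and a set above, AT5G45510 lies above 100 in all ecotypes, and the receptor genes from AT5G45060 to AT5G66890 have a mean signal below 100.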

How the data were processed

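Root RNA of 7 ecotypes was hybridised to 42 ATH1 arrays, and groups were taken from the sample labels. The authors discarded elements whose rank within a probe set departed from Col-0, by ecotype and treatment, and then made signal intensities with MAS5, on a linear scale (version not given in the sources used here); no step between arrays is stated beyond MAS5. The deposited lists of discarded elements and their key hold other values, element numbers and names without a unit. Of 22810 probe sets, 13367 match 1 nuclear gene in the platform annotation, 503 match several and 8730 that are not controls have no entry; the 6590 with a mean signal of at least 100 were tested. The array files name no genome build, so no coordinates are given, and the sequences of the probes were not used here. NIR1 and NRT2.1 were named through the study's own pairs of probe set and locus.

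In R 4.3.3 with limma 3.58.1, log2(signal + 1) was fitted to 14 group means (eBayes with trend, two-sided tests) with Benjamini-Hochberg adjustment over the 6590 genes at 0.1. The added 1 shrinks the ratios of low signals, but these still varied widely and depended on the pseudocount, as for CSA1 in Ts5. The procedure was tested on simulated data. Arrays carry no read depth; the number of arrays limits the precision.

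The 3 genes, the lists and the tests were chosen with earlier results of these data known. Named were the 3 genes, the 3 most alike over group means for each, the measured locus neighbours and, per list, up to 4 tested genes of smallest p or, with fewer than 2 tested, those of highest mean signal. Alternatives changed the normalization (quantile, or scaling to 1 array median), the pseudocount (16), the signal filter, the probe sets, the variance model, a replicate block and the 3' to 5' ratio, and left out each array. Leaving out the 11 arrays of discordant NIR1 was chosen after the data were seen and selects arrays by a nitrate response.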

Additional observations from a re-analysis of the deposited data

How the results depend on the processing

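Of the results with a test, those of CSA1, the AT5G45510 differences among ecotypes, the AT5G45500 interaction and the 0 immune genes called for the averaged response and for the interaction kept their side of the threshold under every alternative. CSA1 differences among ecotypes had adjusted p from 6.41e-13 to 2.64e-08 and those of AT5G45510 from 5.82e-05 to 0.00701 over the settings other than single arrays left out. The averaged response of AT5G45510 lost its call with arrays scaled to 1 median (0.54, adjusted p = 0.210), with no filter on signal or over all probe sets (0.57 in both, adjusted p = 0.120 and 0.109, with more genes tested), without the arrays of discordant NIR1 (0.53, adjusted p = 0.439) and without any 1 of 12 arrays, with values from 0.50 to 0.65 over all 42 such fits; beyond the wider adjustment and the fewer arrays, the cause was not tested. The immune genes called for differences among ecotypes were 9 in each fit that left out 1 array and 5 without the arrays of discordant NIR1, fewer arrays. That setting called 28 genes for the averaged response against 52, 1784 for ecotypes against 3943 and 6 for the interaction against 13. With 1 array left out the 3 counts over all genes were 37 to 75, 3560 to 4182 and 8 to 23.

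Replicate numbers did not pair the arrays over the whole design: of 21 pairs of KCl and KNO3 arrays of 1 number in 1 ecotype, 11 correlated above 0.1 in their deviations from group means (r from -0.22 to 0.69), and 12 KCl arrays correlated best with their own number, as in all 3 of Col0 and TAMM27. All 3 pairs were above 0.1 in Col0 (0.19 to 0.22), TAMM27 (0.41 to 0.69) and Var2-1 (0.40 to 0.43). With the replicate block the AT5G45510 averaged response was 0.57 (adjusted p = 0.0496), its differences among ecotypes had adjusted p = 5.82e-05, those of CSA1 1.42e-10, the CSA1 averaged response was 0.16 (adjusted p = 0.930), the AT5G45500 interaction had 0.946, and 9, 0 and 0 immune genes were called for ecotypes, averaged response and interaction; no call changed. Over all genes the block gave 56 calls for the averaged response against 52. A covariate for the 3' to 5' ratio gave 109 and called 43 for the interaction. With no filter on signal 31 genes passed for the averaged response and 6024 for ecotypes, over all probe sets 77 and 10847, with 25 for the interaction, and scaling to 1 median gave 6 for the interaction. The low CSA1 and AT5G45500 signals limit their responses: with a pseudocount of 16 the CSA1 level in Ts5 was 5.45 in place of 4.46 and that of AT5G45500 in NFA8 5.18 in place of 4.04.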
